A study of Mus musculus with 24 samples.

Results

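This account compares wild-type striatum with wild-type cerebellum, 6 arrays of each, which are 12 of the 24 arrays in a study of huntingtin knock-in mice. All 12 came from mice labelled Hdh+/Hdh+, with a genotype entry of Q7/Q7, which is the wild-type huntingtin allele on both chromosomes. The labels give an age of 3 to 10 weeks for every sample and no treatment, and the other 12 arrays are the same tissues from Q111 knock-in mice. Total RNA was labelled with biotin and hybridised to an Affymetrix mouse array with 45101 probe sets. The labels do not give sex or strain and call the replicates biological without naming mice, and a p-value here reflects sample-to-sample spread that could be technical in part. The members of the comparison are all probe sets except the 64 controls that averaged 4 or more, on the deposited scale, in at least 1 of the tissues. This left 20769 of 45037 probe sets, or 46.1%.

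Striatum and cerebellum both sit in motor circuits but are built from different neurons. The striatum is a forebrain nucleus in which most neurons are GABAergic medium spiny projection neurons, which receive cortical and thalamic glutamate and midbrain dopamine. They divide into direct pathway cells, marked by the D1 dopamine receptor and substance P, and indirect pathway cells, marked by the D2 receptor and enkephalin. The cerebellum is a hindbrain structure dominated by very small glutamatergic granule neurons, whose axons contact Purkinje cells, the GABAergic output neurons of its cortex. Bergmann glia are astrocytes aligned with the Purkinje cells. In Huntington's disease, caused by an expanded repeat in huntingtin, the medium spiny neurons are the most affected cells and the cerebellum is affected less.

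Values are the authors' GCRMA values, read as log2, so a difference of 1 is 2-fold. The log base is not stated, and folds rest on that reading. A level under 4 was taken as too low to measure well, so where a tissue averaged under 4 the fold was computed with values under 4 set to 4 and is given as "at least". A probe set or gene was called when limma's two-sided test gave an adjusted p below 0.05 (Benjamini-Hochberg over the 20769 probe sets). A gene with several probe sets was represented by the brightest, which gave 10780 genes. Differences are striatum minus cerebellum throughout, so a negative value is higher in cerebellum. Arrays measure a mixture of cells, so more cells of a type and more RNA per cell cannot be told apart in any result here.

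Some arrays differed in ways the tissue does not set. Across probe sets past the filter, Pearson correlations between wild-type arrays were 0.983 to 0.993 within a tissue and 0.796 to 0.849 between tissues. Xist, which is transcribed from the inactive X chromosome of females, read 9.37, 10.33 and 10.66 in striatum replicates 1, 3 and 6 and 3.52 to 4.12 in the others. In cerebellum it read 11.41 in replicate 6, 4.60 and 4.52 in replicates 4 and 5, and 7.26 to 7.33 in replicates 1 to 3. The Y-linked Eif2s3y also read 5.06 to 6.10 in cerebellum replicates 1 to 3, against 6.53 to 6.71 in replicates 4 and 5 and 3.12 in replicate 6. Without these 3 cerebellum arrays 13215 probe sets were called, against 14763 with them, so the counts come from unequal numbers of arrays. Called at 2-fold or more were 2488 toward striatum and 2905 toward cerebellum without them, against 2446 and 2816 with them. Over the 12 arrays of a tissue, both genotypes included, the mean of replicate numbers 1 to 3 and that of numbers 4 to 6 differed by an SD over probe sets of only 0.05, against 0.24 in wild-type striatum alone and 0.17 in wild-type cerebellum alone. No label records a step that would bring these means together. The count was 14763 without a term for the number set and 14754 with it. From only 3 arrays per tissue it was 11705 in numbers 1 to 3 alone and 11981 in numbers 4 to 6 alone.

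Most of the transcripts measured differed between the tissues. Of the 20769 probe sets, 14763 were called (71.1%), with 6252 (30.1%) higher in striatum and 8511 (41.0%) higher in cerebellum. A difference of at least 2-fold was present in 5262 called probe sets (25.3%), of at least 4-fold in 2146 (10.3%) and of at least 16-fold in 502 (2.42%). At 16-fold, 339 probe sets (1.63%) were higher in striatum and 163 (0.785%) in cerebellum. These counts, and counts at 2-fold in the lists below, use the deposited values without the bound. With values under 4 set to 4, 2204 and 2474 probe sets were at least 2-fold higher in striatum and in cerebellum, against 2446 and 2816 without the bound, and 243 and 126 at least 16-fold higher. Of the 10780 genes, 7877 were called (73.1%), 3436 higher in striatum (31.9%) and 4441 higher in cerebellum (41.2%). At least 2-fold differences were called in 1337 genes toward striatum (12.4%) and 1364 toward cerebellum (12.7%). In 5952 genes (55.2%) the 6 striatum arrays did not overlap the 6 cerebellum arrays. The median difference over all genes was -0.08, and the list counts below are to be read against these shares. A gene that averaged under 4 in 1 tissue passed the filter only through the other, so its direction was fixed by the filter. Probe sets just inside the filter averaged 4.00 in their higher tissue, and those just outside it also rounded to 4.00.

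**Figure D1:**
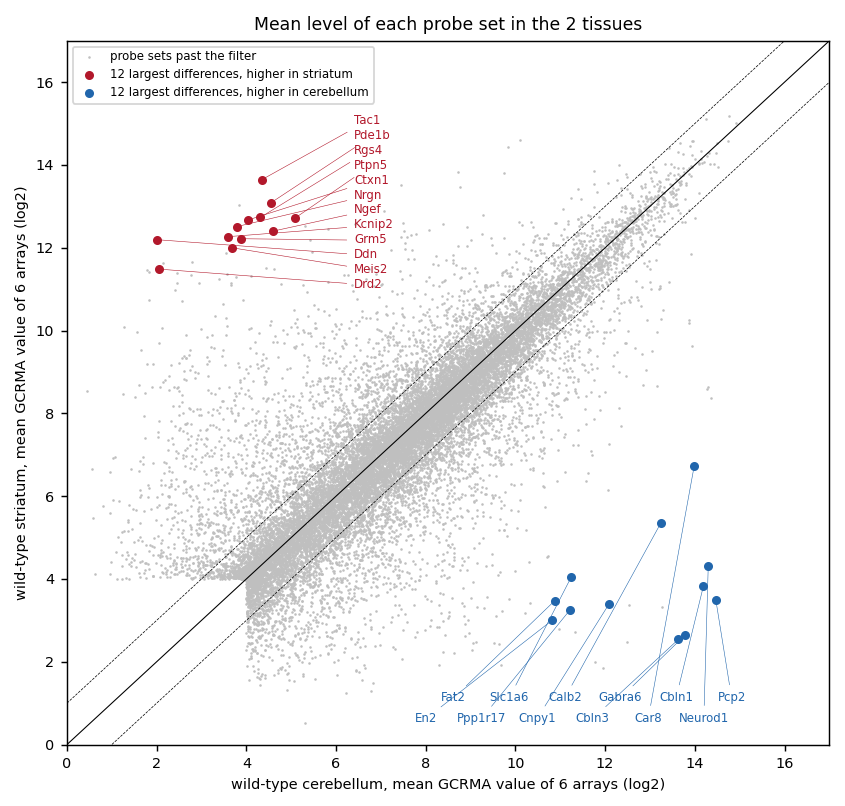
Mean GCRMA value (log2) of each probe set past the filter in 6 wild-type cerebellum arrays (horizontal axis) and 6 wild-type striatum arrays (vertical axis). The solid line marks equal levels and the dashed lines a 2-fold difference; 12 genes in red (Tac1 to Drd2) lie far above it and 12 in blue (Pcp2 to En2) far below it.

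The scaling of the arrays moved the split of the calls. The deposited table has array medians of 3.38 to 3.49, but the lowest value on an array was 0.36 to 0.38 in striatum and -0.74 to -0.66 in cerebellum. The 18 hybridisation control probe sets, which report material added to every sample after labelling, were higher in striatum by a median of 0.30 (range 0.01 to 0.50). Centring each array on these controls left 3803 probe sets higher in striatum and 10638 higher in cerebellum, so the share of calls toward striatum went from 42.3% to 26.3%. At 4-fold the balance turned, from 1132 higher in striatum and 1014 in cerebellum to 975 and 1260, and at 16-fold the counts were 298 and 209. Quantile normalisation of the 12 arrays gave 6839 and 7939. Centring on the controls moved the median of all differences from -0.09 to -0.34, so calls on differences of about that size are tied to the scaling.

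The 12 genes with the largest bounded differences toward striatum were Tac1, Pde1b, Ctxn1, Nrgn, Rgs4, Kcnip2, Ddn, Grm5, Meis2, Ngef, Ptpn5 and Drd2. Tac1, the precursor of substance P, ran from 13.28 to 14.09 in striatum (median 13.57) and 3.60 to 4.66 in cerebellum (median 4.51). It was 631-fold higher in striatum (difference 9.30, SE 0.17, adjusted p = 3.24e-14), and the 2 sets of arrays lay far apart. Drd2, the D2 dopamine receptor, ran from 10.71 to 11.84 in striatum (median 11.59) and 1.71 to 2.45 in cerebellum (median 2.04), with replicate 6 the lowest striatum array. Its level in cerebellum was under 4, so the gap of 9.42 gives at least 179-fold.

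Several of the others encode postsynaptic signalling proteins of forebrain neurons. Nrgn (neurogranin, which binds calmodulin) was at least 326-fold higher in striatum, and Ddn (dendrin, a dendritic cytoskeletal protein) at least 293-fold. Ngef, a guanine nucleotide exchange factor, read 12.40 ± 0.39 in striatum and 4.59 ± 0.61 in cerebellum (SD, n = 6 arrays each). Ptpn5, the striatum-enriched tyrosine phosphatase STEP, read 12.71 ± 0.42 and 5.08 ± 0.63. Kcnip2, a calcium-sensing subunit of A-type potassium channels, read 12.27 ± 0.39 and 3.58 ± 0.59. Ctxn1 (cortexin 1) was 398-fold higher in striatum. All 12 had striatum levels between 11.48 and 13.64 and cerebellum levels between 2.00 and 5.08.

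The 12 toward cerebellum were Pcp2, Neurod1, Cbln1, Gabra6, Cbln3, Cnpy1, Calb2, Car8, Ppp1r17, Slc1a6, Fat2 and En2. Pcp2, a Purkinje cell protein that binds G proteins, ran from 3.25 to 3.85 in striatum (median 3.44) and 14.28 to 14.63 in cerebellum (median 14.47). The difference was -10.98 (SE 0.12, adjusted p = 1.09e-16), at least 1417-fold toward cerebellum. Gabra6, the GABA-A receptor subunit specific to granule neurons, ran from 2.37 to 2.93 in striatum (median 2.67) and 13.69 to 13.83 in cerebellum (median 13.79) and was at least 881-fold higher there. Its SD over the cerebellum arrays was only 0.05, and the groups were separated by more than 10 log2 units.

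Cbln3, a cerebellin secreted by granule neurons, read 2.54 ± 0.04 in striatum and 13.63 ± 0.11 in cerebellum. Its partner Cbln1 read 3.83 ± 0.95 and 14.19 ± 0.26, with a wider spread among the striatum arrays. Neurod1, a basic helix-loop-helix factor of granule neurons, was 1015-fold higher in cerebellum. Calb2 (calretinin) varied most in striatum, from 3.66 to 6.78 in striatum (median 5.67) and 13.10 to 13.36 in cerebellum (median 13.26). Car8, a carbonic anhydrase-related protein that binds the inositol trisphosphate receptor of Purkinje cells, had the highest striatum level of the 12 (6.74 ± 0.27) and was 152-fold higher in cerebellum. Cnpy1, a regulator of fibroblast growth factor signalling at the midbrain-hindbrain boundary, was at least 272-fold higher there, and Fat2, a giant protocadherin of granule neurons, at least 116-fold.

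**Figure D2:**
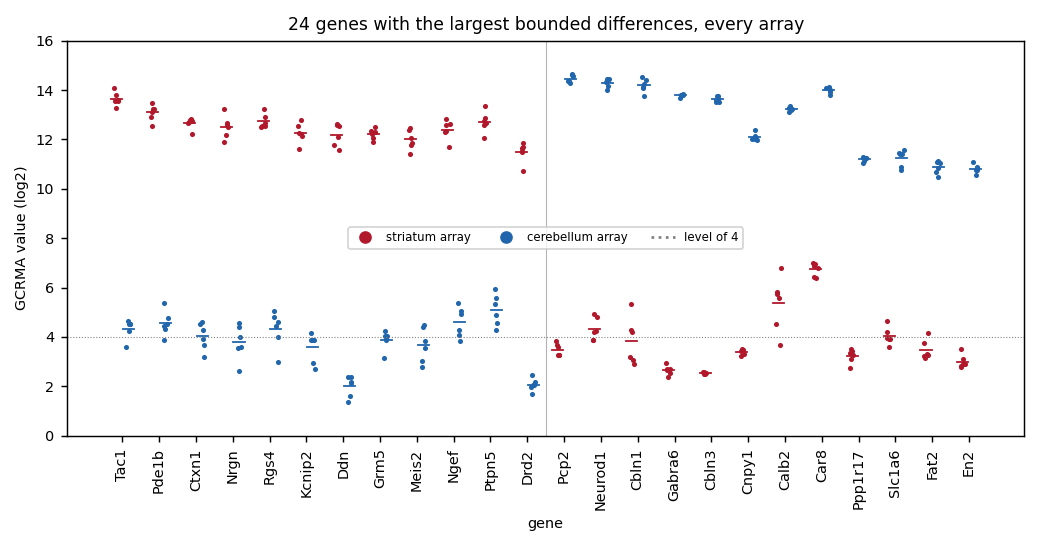
GCRMA value (log2, vertical axis) of the 24 genes with the largest bounded differences on each of the 6 striatum (red) and 6 cerebellum (blue) arrays; short bars are means and the dotted line is the level of 4. For each gene the arrays of the 2 tissues form separate groups, and Calb2 has the widest spread in striatum.

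Upstream sequences of 4 of these genes are shown because each belongs to a principal neuron of its tissue: Tac1 and Drd2 for direct and indirect pathway medium spiny neurons, Pcp2 for Purkinje cells and Gabra6 for granule neurons. Each is the 250 bases before the annotated start in RefSeq (build GRCm38.p6), written 5′ to 3′ on the strand of the gene, with CpG dinucleotides in capitals. The Tac1 stretch is at chr6:7554811-7555060, plus strand, and that of Drd2 at chr9:49340153-49340402, plus strand. The Pcp2 stretch, from the first of 4 annotated starts, is at chr8:3625548-3625797, minus strand, and that of Gabra6 at chr11:42321073-42321322, minus strand.
Tac1: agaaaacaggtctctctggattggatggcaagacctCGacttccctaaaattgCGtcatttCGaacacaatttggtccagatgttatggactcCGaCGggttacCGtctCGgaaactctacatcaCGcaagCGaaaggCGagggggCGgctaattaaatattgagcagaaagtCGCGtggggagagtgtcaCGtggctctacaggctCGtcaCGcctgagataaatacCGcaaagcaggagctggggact
Drd2: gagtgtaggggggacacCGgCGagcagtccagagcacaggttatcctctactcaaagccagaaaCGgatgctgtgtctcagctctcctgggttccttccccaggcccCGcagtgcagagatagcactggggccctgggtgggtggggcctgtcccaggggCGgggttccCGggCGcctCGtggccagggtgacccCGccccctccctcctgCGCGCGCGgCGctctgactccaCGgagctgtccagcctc
Pcp2: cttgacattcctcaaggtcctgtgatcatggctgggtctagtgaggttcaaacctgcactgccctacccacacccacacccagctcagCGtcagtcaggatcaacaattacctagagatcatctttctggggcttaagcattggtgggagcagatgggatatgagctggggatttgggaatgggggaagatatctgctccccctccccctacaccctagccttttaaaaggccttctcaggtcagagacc
Gabra6: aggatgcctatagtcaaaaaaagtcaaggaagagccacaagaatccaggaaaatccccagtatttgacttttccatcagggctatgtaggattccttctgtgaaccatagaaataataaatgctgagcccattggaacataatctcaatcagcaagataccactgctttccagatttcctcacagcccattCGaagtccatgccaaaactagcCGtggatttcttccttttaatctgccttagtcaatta

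The Tac1 and Drd2 stretches hold 17 and 15 CpG dinucleotides, and the Pcp2 and Gabra6 stretches 1 and 2. These 4 were picked after their values were seen and do not stand for all genes. Over windows of 250 bases before to 50 after a start, the median CpG count was 15 for genes at least 16-fold higher in striatum (206 windows of 140 genes) and 11 for those at least 16-fold higher in cerebellum (103 windows of 77 genes). It was 21 over the 11412 windows of all genes past the filter and 7 over all 32851 windows. Among the 24 genes named above, 10 of the 12 toward striatum had a window and held 4 to 28 CpGs (median 17.5), and 7 of the 12 toward cerebellum held 1 to 32 (median 4).

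The Pcp2 stretch also carries AGGTCA, the core motif that many nuclear receptors bind, starting 12 bases before the start; the expression of one such receptor, Rora, is given with the Purkinje cell genes. AGGTCA, searched on both strands after the data were seen, was in 18.4% of the windows of genes at least 16-fold higher in cerebellum, 7.77% of those at least 16-fold higher in striatum, 11.9% of windows of genes past the filter and 16.3% of all windows. The E-box CAGATG was in 16.5%, 16.5%, 11.4% and 17.2%, the TATA sequence TATAAA in 4.85%, 11.2%, 7.06% and 13.6%, the cyclic AMP response element TGACGTCA in 1.94%, 2.91%, 2.95% and 1.79%, and the GC box GGGCGG in 45.6%, 47.6%, 62.4% and 35.7%. These are descriptions of letters in a window and show no binding.

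Medium spiny neuron genes were far higher in striatum. Of 33 measured genes common to both kinds of these neurons, 32 were higher in striatum, each at least 2-fold. None of the 32 overlapped between the tissues, beside 55.2% of all genes without overlap. Those under 4 in cerebellum, such as Meis2 and Bcl11b, passed the filter only through striatum, so their direction was fixed by the filter. The list's median difference was 5.52, or 5.01 with values under 4 set to 4. Pde1b, Rgs4, Meis2 and Ptpn5 led it with Bcl11b (CTIP2, a zinc finger factor needed for medium spiny neuron differentiation), which ran from 10.45 to 11.35 in striatum (median 11.01) and 2.12 to 2.64 in cerebellum (median 2.38). Arpp21, a cyclic AMP-regulated phosphoprotein, was 67.3-fold higher in striatum (13.51 against 7.44). The exception was Cnr1, the cannabinoid CB1 receptor, at 11.85 ± 0.24 in striatum and 12.01 ± 0.14 in cerebellum, which was not called (difference -0.16, adjusted p = 0.202). It was called toward cerebellum without striatum replicate 3 (difference -0.25, adjusted p = 0.0246), in numbers 4 to 6 alone (-0.33, adjusted p = 0.0363) and with arrays centred on the hybridisation controls (-0.41, adjusted p = 0.00558).

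All 10 direct pathway genes measured were called, 8 higher in striatum and 2 higher in cerebellum, beside 73.1% of all genes called. Drd1, the D1 dopamine receptor, ran from 10.56 to 11.65 in striatum (median 11.21) and 2.73 to 3.51 in cerebellum (median 2.85) and was at least 141-fold higher in striatum. Slc35d3, a nucleotide sugar transporter family member, was at least 36-fold higher, and Isl1, a LIM homeobox factor, at least 7.76-fold. Pdyn, the prodynorphin gene, was low even in striatum at 5.29 ± 0.19, and Chrm4, the M4 muscarinic receptor, averaged 4.01 ± 0.89 there, close to the filter; with values under 4 set to 4 its call was lost (difference 0.37, adjusted p = 0.139). The 2 genes higher in cerebellum were the transcription factors Zfp521 (7.54 against 10.57) and Ebf1 (6.60 against 8.72), which were present in both tissues.

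Of 5 indirect pathway genes past the filter, 4 were higher in striatum, with a median for the list of 4.95. Penk, which encodes enkephalin, ran from 13.45 to 14.04 in striatum (median 13.87) and 9.43 to 10.03 in cerebellum (median 9.73). It was the brightest of them in both tissues, and its 16.7-fold difference was the smallest of the 4. Gpr6, a constitutively active orphan receptor, was at least 166-fold higher in striatum and Gprin3, a G protein-regulated inducer of neurite outgrowth, 31-fold. Plxdc1 was the exception, at 6.49 in striatum and 7.53 in cerebellum.

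Of 6 interneuron genes past the filter, 5 were higher in striatum and 1 in cerebellum (median 1.59). Genes of cholinergic cells were largely below the level of 4. Chat, Slc18a3 and Slc5a7, which make, load and recapture acetylcholine, averaged under 4 in both tissues. Lhx8, a homeobox factor of striatal cholinergic neurons, was at least 8.62-fold higher in striatum at 7.11 ± 0.33. Sst (somatostatin) ran from 11.16 to 11.59 in striatum (median 11.36) and 2.39 to 4.06 in cerebellum (median 3.79) and was at least 163-fold higher in striatum. Npy (neuropeptide Y) was 4.47-fold higher there, whereas Nos1, the neuronal nitric oxide synthase found with both peptides in striatal interneurons and also in cerebellar neurons, was 2.4-fold higher in cerebellum.

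Purkinje cell genes were mostly far higher in cerebellum. Of 20 genes past the filter, 18 were higher in cerebellum and 2 in striatum, with a median of -4.17. Slc1a6, the Purkinje cell glutamate transporter EAAT4, was 147-fold higher in cerebellum, and Ppp1r17, a phosphatase inhibitor that is a substrate of cyclic GMP-dependent kinase, at least 148-fold. Arhgef33 was at least 74.6-fold higher. Rora, the nuclear receptor lost in the staggerer mouse, was 6.89-fold higher in cerebellum and read 8.53 in striatum; it is named here although it lies outside the naming rule, because of the motif above.

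Some Purkinje cell genes are also expressed by medium spiny neurons or astrocytes. Calb1 (calbindin) read 11.70 ± 0.10 in striatum and 13.14 ± 0.15 in cerebellum, and Aldoc (zebrin II, also an astrocyte gene) 12.72 ± 0.09 and 14.00 ± 0.13. Pcp4, a calmodulin-binding peptide named for Purkinje cells, was 1.54-fold higher in striatum, and Foxp2, a forkhead factor expressed in both cell types, 18.3-fold higher in striatum (10.16 against 5.97).

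Granule neuron genes were nearly all higher in cerebellum: 24 of 25 were higher there, 23 by at least 2-fold, with a median of -4.50. Zic1, a zinc finger factor, ran from 7.68 to 9.54 in striatum (median 8.68) and 13.78 to 14.74 in cerebellum (median 14.30) and was 49.7-fold higher in cerebellum, though it was clearly present in striatum. Nfix, a nuclear factor I protein, was 4.19-fold higher in cerebellum. Reln (reelin, secreted by granule neurons in the cerebellum and by interneurons in the forebrain) differed by -0.69, and its arrays overlapped between the tissues. Rasgrf1, an exchange factor for Ras, was the exception and was 1.79-fold higher in striatum.

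Genes of the other cerebellar neurons were divided, with 7 of 10 higher in cerebellum and 3 in striatum (median -1.72, or -0.90 with values under 4 set to 4). Pvalb (parvalbumin, a calcium buffer of Purkinje cells and molecular layer interneurons) ran from 8.03 to 9.04 in striatum (median 8.56) and 13.99 to 14.52 in cerebellum (median 14.27). Eomes, the T-box factor of unipolar brush cells, was 17.5-fold higher in cerebellum, Kit, a receptor tyrosine kinase of molecular layer interneurons, 7.5-fold, and Grm2, the receptor of Golgi cells, at least 4.7-fold. Slc6a5, the glycine transporter of Golgi and other glycinergic neurons, reached only 4.48 ± 0.80 in cerebellum. Nxph1 (neurexophilin 1) and Sorcs3 were 2.37-fold and 2.07-fold higher in striatum.

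A list's median computed with values under 4 set to 4 is called bounded below. Developmental transcription factors of the forebrain and of the hindbrain took opposite sides. Many of them, such as En2, Zic1, Pax6, Lhx1, Meis2, Six3 and Foxp1, are also on the neuron lists above. The counts here are therefore not independent of those. Of 15 factors past the filter from a midbrain and hindbrain list, 15 were higher in cerebellum (median -3.88, bounded -2.88). None of the 15 overlapped between the tissues, beside 55.2% of all genes without overlap. Those under 4 in striatum passed the filter only through cerebellum, so their direction was fixed by the filter. En2, a homeobox factor that patterns the cerebellum, was at least 112-fold higher, Lhx1, a LIM homeobox factor of Purkinje cells, at least 33.2-fold, and Pax6, a paired box factor of granule neurons, at least 20.9-fold. Zic5 was 45.1-fold higher, Zic2 at least 13.3-fold and Zic4 at least 3.77-fold. Another 12 listed factors, among them En1, Pax5, Atoh1 and Ptf1a, averaged under 4 in both tissues.

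Of 13 forebrain factors past the filter, 10 were higher in striatum and 2 in cerebellum (median 4.53, bounded 2.96). Those under 4 in cerebellum likewise passed the filter only through striatum. Meis2, a TALE homeobox factor, was at least 231-fold higher in striatum, whereas its paralog Meis1 was 3.82-fold higher in cerebellum. Six3, which patterns the anterior forebrain, was at least 17.6-fold higher in striatum, and Foxp1, a forkhead factor of medium spiny neurons, 23-fold. The distal-less genes of forebrain GABAergic neurons were lower in level: Dlx5 read 7.27 ± 0.28, Dlx1 6.54 ± 0.36 and Dlx2 5.12 ± 0.56 in striatum, and all 3 averaged under 4 in cerebellum. Lhx2 was at least 4.78-fold higher in striatum. Tshz1 was not called (difference 0.23) but was called toward striatum after quantile normalisation (0.29, adjusted p = 0.0414). The Hox genes, which mark hindbrain levels below the cerebellum and the spinal cord, were mostly low: of 19 Hox genes with a named probe set, 18 averaged under 4 in both tissues and Hoxa5 read 5.73 and 6.00.

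Retinoic acid genes separated receptors from enzymes. Retinoic acid acts through RAR and RXR nuclear receptors. Rarb and Rxrg, the receptors enriched in striatum, were at least 68.9-fold and at least 40.1-fold higher there, and Rxra was 2.75-fold higher. The synthetic enzyme Aldh1a1 was 10.6-fold higher in cerebellum and Cyp26b1, which degrades retinoic acid, at least 2.69-fold. In all, 7 of 10 were higher in striatum and 3 in cerebellum.

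In the signalling chain from modulatory receptors to cyclic AMP, related genes often took opposite sides. Of 11 receptors past the filter for dopamine, serotonin, acetylcholine, opioids and cannabinoids, 10 were higher in striatum, 0 in cerebellum, and Cnr1 was not called (median 3.06, bounded 1.96); 15 more averaged under 4 in both. Htr2c, a serotonin receptor coupled to Gq, ran from 10.08 to 11.15 in striatum (median 10.80) and 2.52 to 4.70 in cerebellum (median 4.25), at least 86.4-fold higher in striatum. Chrm1, the M1 muscarinic receptor, was 50.8-fold higher, Htr1b 14.8-fold, Oprk1 (the kappa opioid receptor) at least 3.89-fold and Oprl1 (the nociceptin receptor) 3.81-fold.

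Among G protein subunits, which relay these receptors, 12 of 23 were higher in striatum and 6 in cerebellum (median 0.32). With centring on the hybridisation controls the counts were 8 and 8 and the median 0.08. Among the larger differences were Gng7, at 12.44 ± 0.39 in striatum and 5.82 ± 0.23 in cerebellum, and Gnal, the olfactory-type stimulatory alpha subunit that couples D1 and adenosine receptors in striatum, which was 7.63-fold higher there. Gng4 was at least 16.8-fold higher in striatum. In the other direction Gng13 was 11.7-fold higher in cerebellum, and Gnas, the general stimulatory alpha subunit, was 1.44-fold higher in cerebellum.

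Adenylyl cyclases, which make cyclic AMP, were called in all 8 cases, beside 73.1% of all genes. Adcy5, the main cyclase of medium spiny neurons, ran from 12.20 to 12.99 in striatum (median 12.61) and 7.21 to 7.70 in cerebellum (median 7.53) and was 34.8-fold higher in striatum. Adcy1 and Adcy8, which calcium stimulates, went the other way. Adcy1 ran from 9.94 to 10.50 in striatum (median 10.30) and 12.91 to 13.45 in cerebellum (median 13.24). Adcy8 was at least 5.5-fold higher in cerebellum. Adcy3 and Adcy2 were 2.99-fold and 2.31-fold higher in striatum.

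All 15 measured phosphodiesterases, which degrade cyclic nucleotides, were called, beside 73.1% of all genes. Of the 15, 9 were higher in striatum and 6 in cerebellum. Pde1b, activated by calcium and calmodulin, ran from 12.53 to 13.49 in striatum (median 13.19) and 3.89 to 5.38 in cerebellum (median 4.49). Pde7b was 36-fold higher in striatum, Pde2a 22.4-fold, Pde10a, a striatal enzyme and drug target, 20.3-fold, and Pde8b 10.9-fold. The cyclic GMP-specific Pde5a was at least 23-fold higher in cerebellum and Pde9a 5.69-fold. In the Pde1 subfamily Pde1b and Pde1a were higher in striatum and Pde1c in cerebellum (7.06 against 8.06). In the Pde4 subfamily Pde4b was 2.19-fold higher in striatum and Pde4d 1.46-fold higher in cerebellum.

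RGS proteins, which switch G proteins off, were called in all 15 cases, beside 73.1% of all genes. Of the 15, 11 went toward striatum and 4 toward cerebellum (median 1.96). Rgs4 was 343-fold higher in striatum, Rgs9, which shapes D2 receptor signalling, 85.5-fold, Rgs2 24.1-fold, Rgs14 23.2-fold and Rgs11 at least 11.5-fold. Rgs3 was 6.38-fold higher in cerebellum. Rgs8, a Purkinje cell gene, averaged higher in cerebellum by 7.01-fold, but its arrays ran from 4.88 to 9.41 in striatum (median 7.35) and 7.52 to 11.60 in cerebellum (median 10.73) and overlapped. Without cerebellum replicates 1 to 3 its difference was -2.43 and missed the threshold (adjusted p = 0.0848). Rgs16 also overlapped between the tissues.

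**Figure D3:**
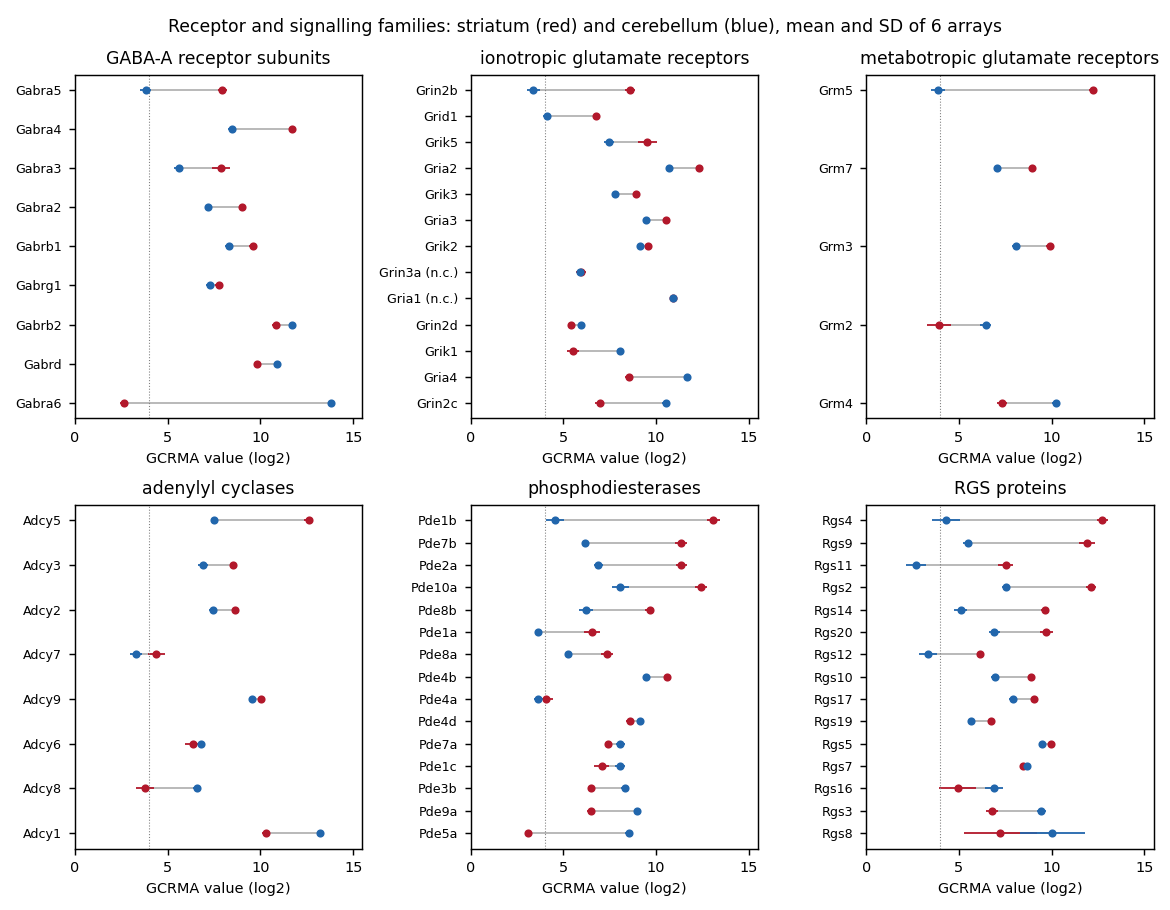
Mean GCRMA value (log2, horizontal axis) with SD of 6 striatum (red) and 6 cerebellum (blue) arrays for the measured members of 6 receptor and signalling families, sorted by difference; n.c. marks a gene not called and the dotted line the level of 4. Each family holds members far apart in opposite directions, such as Gabra6 against Gabra5, Grin2c against Grin2b and Pde5a against Pde1b.

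Kinases and phosphatases of the synapse followed the same divided pattern, with 16 of 25 higher in striatum and 8 in cerebellum. Ppp1r1b (DARPP-32, the phosphatase inhibitor that integrates dopamine and glutamate signals) was 18.2-fold higher in striatum, at 12.57 ± 0.36 against 8.38 ± 0.30, and Prkar2b, a regulatory subunit of protein kinase A, 26.7-fold. Of the calcium/calmodulin-dependent kinase II subunits, Camk2a was 23-fold higher in striatum and Camk2b 1.72-fold, whereas Camk2d was 7.06-fold and Camk2g 1.51-fold higher in cerebellum. Prkg1, the cyclic GMP-dependent kinase of Purkinje cells, was 3.46-fold higher in cerebellum and Prkg2 at least 2.97-fold higher in striatum. Prkcd was 7.55-fold higher in cerebellum, while Prkca and Prkcb were 3.48-fold and 2.34-fold higher in striatum. Ppp3cb, a calcineurin subunit, had 2 of 3 other probe sets called the opposite way, so its direction is uncertain.

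GABA-A receptors are pentamers whose alpha subunit sets much of their pharmacology. Of 9 measured subunits, 6 were higher in striatum and 3 in cerebellum. Besides Gabra6, the extrasynaptic Gabrd and the synaptic Gabrb2 were higher in cerebellum, by 2.1-fold and 1.82-fold. Gabra5 was at least 15.1-fold higher in striatum, Gabra4 9.48-fold (11.70 against 8.45), Gabra3 4.89-fold and Gabra2 3.51-fold.

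Ionotropic glutamate receptors gave 7 of 13 subunits higher in striatum, 4 higher in cerebellum and 2 not called. For NMDA receptors, Grin2b ran from 8.30 to 9.04 in striatum (median 8.51) and 3.08 to 3.90 in cerebellum (median 3.21) and Grin2c, the subunit of mature granule neurons, from 6.68 to 7.35 in striatum (median 6.96) and 10.32 to 10.80 in cerebellum (median 10.44). Grin2b was at least 24.5-fold higher in striatum and Grin2c 11.7-fold higher in cerebellum. For AMPA receptors, Gria4 was 8.9-fold higher in cerebellum, Gria3 2.12-fold higher in striatum, and Gria1 was not called, at 10.93 ± 0.13 and 10.93 ± 0.10. Gria2 was 3.07-fold higher in striatum by its brightest probe set, but 1 of its 2 others was called the opposite way. Of the kainate receptor genes, Grik5 was 4.22-fold higher in striatum and Grik1 5.74-fold higher in cerebellum. Grid1, a delta receptor, was 6.12-fold higher in striatum.

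Metabotropic glutamate receptors were all called, 3 of 5 toward striatum, beside 73.1% of all genes called. Grm5, the Gq-coupled receptor of medium spiny neurons, was at least 287-fold higher in striatum, with arrays from 11.89 to 12.49 in striatum (median 12.26) and 3.14 to 4.24 in cerebellum (median 4.01). Grm7 and Grm3 were 3.73-fold and 3.62-fold higher there. Grm4, the presynaptic receptor of granule cell axons, was 7.51-fold higher in cerebellum.

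Enzymes and transporters of transmitters were evenly divided, 7 higher in striatum and 7 in cerebellum of 15. The 2 GABA-synthesising enzymes differed in size: Gad2 was 4.91-fold higher in striatum and Gad1 1.3-fold (13.35 against 12.98). With centring on the hybridisation controls Gad1 was not called (difference 0.13, adjusted p = 0.345). The vesicular transporter of GABA, Slc32a1, was 2.03-fold higher in striatum. The vesicular glutamate transporter of granule neurons, Slc17a7 (VGLUT1), was 6.11-fold higher in cerebellum and still read 8.79 ± 0.68 in striatum. Among glutamate uptake carriers, Slc1a2 (GLT-1) and Slc1a1 (EAAC1) were 3.29-fold and 5.17-fold higher in striatum, while Slc1a3 (GLAST) and Slc1a6 were 4.41-fold and 147-fold higher in cerebellum.

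Neuropeptide genes were mostly striatal: 11 of 17 were higher in striatum, 2 higher in cerebellum and 4 not called (median 2.12, bounded 1.29). Beyond Tac1, Penk and Sst, Nts (neurotensin) was at least 12.9-fold higher in striatum and Vgf, a secreted granin-like precursor, 23.8-fold. Scg2 (secretogranin II) was 3.58-fold higher in striatum, whereas Chgb (chromogranin B) was 2.84-fold higher in cerebellum. Cck (cholecystokinin) read 10.21 ± 0.43 and 10.23 ± 0.28 and was not called. Crh was at least 2.3-fold higher in striatum from a low level of 5.20. Cartpt reached only 4.49 in striatum, and its call was lost with values under 4 set to 4 (adjusted p = 0.0753).

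Calcium-binding proteins were divided, with 11 of 19 higher in cerebellum and 8 in striatum (median -0.82). Of all genes, 41.2% were higher in cerebellum and 31.9% in striatum. Related sensors took opposite sides: Hpca (hippocalcin) and Hpcal4 were 25.8-fold and 26.5-fold higher in striatum, and Hpcal1 and Vsnl1 (visinin-like 1) were 11.8-fold and 4.56-fold higher in cerebellum. Necab2 and Necab1, EF-hand proteins of neurons, were 149-fold and at least 19.5-fold higher in striatum. Pcp4l1, a relative of Pcp4, was 37.9-fold higher in striatum.

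Genes of calcium stores and pumps gave 9 of 16 higher in striatum and 4 in cerebellum, or 7 and 5 with centring on the hybridisation controls. Atp2a3, the endoplasmic reticulum pump SERCA3 found in Purkinje cells, was 46-fold higher in cerebellum (4.09 against 9.62), while the general pump Atp2a2 was not called at 13.21 and 13.30. With that centring Atp2a2 was called toward cerebellum (difference -0.34, adjusted p = 0.00851). The ryanodine receptor Ryr3 was 8.69-fold higher in striatum. Of the plasma membrane pumps, Atp2b1 was 5.24-fold higher in striatum and Atp2b3 4.09-fold higher in cerebellum.

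Potassium channel genes were divided between the tissues, 12 higher in striatum and 18 in cerebellum of 33. Kcnip2 led the striatal side, and its relatives Kcnip1 and Kcnip4 were 6.46-fold and 3.62-fold higher in cerebellum. The M-current genes Kcnq5 and Kcnq3 were at least 59.7-fold and 11.2-fold higher in striatum. Kcnj4, an inward rectifier that holds medium spiny neurons at a hyperpolarised resting potential, was at least 28.1-fold higher in striatum, while the inward rectifiers Kcnj12, Kcnj3 and Kcnj9 were 22-fold, 6.72-fold and 4.33-fold higher in cerebellum. Kcnc1 (Kv3.1), which supports fast firing, was 14.7-fold higher in cerebellum and Kcnc2 9.52-fold higher in striatum. Of the leak channels, Kcnk2 (TREK-1) was 26.7-fold higher in striatum and Kcnk10 and Kcnk3 (TASK-1) at least 19.6-fold and 19-fold higher in cerebellum. Kcna4 was 19.7-fold higher in striatum; Kcna6 had another probe set called the opposite way.

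Among sodium and calcium channel genes, 13 of 27 were higher in striatum and 10 in cerebellum. The T-type calcium channel genes took opposite sides: Cacna1g was 55.8-fold higher in cerebellum and Cacna1h at least 25-fold higher in striatum. Cacna1a, the P/Q-type channel of Purkinje cells, was 4.26-fold higher in cerebellum, and Cacna1e (R-type) 3.04-fold higher in striatum. Scn4b, Scn3b and Scn3a were 27-fold, at least 57.4-fold and at least 31.8-fold higher in striatum. The main axonal and somatic sodium channels differed little: Scn1a and Scn2a were 1.96-fold and 1.49-fold higher in cerebellum, and Scn8a was not called (difference -0.14), although it was called without cerebellum replicate 2 (adjusted p = 0.0362). Scn2b had another probe set called the opposite way.

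Synaptic organisers were led by the cerebellins, hexameric proteins that bridge neurexins and delta glutamate receptors. Cbln1 and Cbln3 were far higher in cerebellum, as given above, while Cbln4 and Cbln2 were at least 3.77-fold and at least 2.21-fold higher in striatum. The postsynaptic leucine-rich repeat proteins Lrrtm1 and Lrrtm4 were at least 31-fold and at least 10.3-fold higher in striatum, and Nlgn1 (neuroligin 1) 4.58-fold. Nrxn2 was 3.23-fold higher in cerebellum; Nrxn3, at -0.72, had 1 of 3 other probe sets called the opposite way.

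Glia also differed. Bergmann glia genes were higher in cerebellum in 11 of 12 cases, with a median of -3.13. Dao, the D-amino acid oxidase, was at least 21-fold higher in cerebellum, A2m (alpha-2-macroglobulin) 23.5-fold, the homeodomain-only protein gene Hopx 17.9-fold, Gdf10 (a growth factor of the transforming growth factor beta family) 16.5-fold and Timp4, a metalloproteinase inhibitor, 14.3-fold. Fabp7 (brain lipid-binding protein) read 9.56 and 11.64.

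General astrocyte genes were divided, 11 of 18 higher in cerebellum and 5 in striatum (median -0.50), or 12 and 3 with centring on the hybridisation controls (median -0.74). Agt (angiotensinogen), Aqp4 (the aquaporin of astrocyte endfeet) and S100b were 7.13-fold, 6.81-fold and 4.17-fold higher in cerebellum. Gpc5, a glypican, was 6.77-fold higher in striatum, Mfge8 2.19-fold and Glul (glutamine synthetase) 1.49-fold; Glul was not called with that centring (difference 0.33, adjusted p = 0.0527). Gja1 (connexin 43) differed by -0.64.

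Myelinating oligodendrocyte genes were higher in striatum in 19 of 20 cases, with a median of 1.48. None of the 19 overlapped between the tissues, beside 55.2% of all genes without overlap. Opalin, a myelin membrane protein, was 6.19-fold higher, the lineage factor Olig2 4.21-fold, Anln 4.08-fold, Mal 3.69-fold and Mog (myelin oligodendrocyte glycoprotein) 3.42-fold. Klk6, a secreted serine protease, was the exception, at 7.61 and 7.68, and is named for that after its values were seen. Mbp (myelin basic protein) ran from 15.07 to 15.26 in striatum (median 15.21) and 14.69 to 14.86 in cerebellum (median 14.76), and Cnp was 1.26-fold higher in striatum. The difference of Mbp, 0.42, turned to -0.12 after quantile normalisation, and neither Mbp nor Cnp was called with centring on the hybridisation controls. Of 7 precursor genes, 5 were higher in striatum, including Gpr17 (4.33-fold) and Pdgfra (3.63-fold), and 2 were not called; with centring on the hybridisation controls 3 were higher in striatum and 1 in cerebellum.

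Microglia genes were higher in striatum in 16 of 17 cases (median 1.90). P2ry12, the purinergic receptor of resting microglia, ran from 7.58 to 7.90 in striatum (median 7.75) and 4.27 to 4.85 in cerebellum (median 4.79). Csf1r, the receptor on which microglia depend, was 5.65-fold higher, the signalling adaptor Tyrobp 4.29-fold, Laptm5 3.88-fold and the complement gene C1qa 3.74-fold. The list's mean level on an array was 6.66 to 7.04 in striatum and 4.78 to 5.08 in cerebellum.

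Genes of blood vessels differed little and those of the meninges differed widely. Of 13 endothelial and mural genes, 7 were higher in striatum, 1 in cerebellum and 5 not called, with none at 2-fold and a median of 0.21. With centring on the hybridisation controls the counts were 3 and 2 and the median -0.03. Cldn5, the claudin of the blood-brain barrier, differed by 0.29 (adjusted p = 0.0379) and lost its call when any 1 of 7 arrays was left out (cerebellum replicate 2, 4 or 6, or striatum replicate 2, 3, 4 or 5; adjusted p = 0.0506 to 0.0878). Slc2a1, the barrier's glucose transporter, read 10.65 and 10.58. All 11 meningeal genes past the filter were higher in cerebellum, with a median of -2.92, or -1.77 with values under 4 set to 4. None of the 11 overlapped between the tissues, beside 55.2% of all genes without overlap. Members under 4 in striatum passed the filter only through cerebellum, so their direction was fixed by the filter. Ptgds, the prostaglandin D synthase of the meninges and choroid plexus, ran from 9.75 to 10.69 in striatum (median 10.15) and 13.67 to 14.03 in cerebellum (median 13.89). Fmod and Dcn, proteoglycans of connective tissue, were at least 10.9-fold and 7.9-fold higher in cerebellum, and the collagen gene Col1a2 4.29-fold.

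**Figure D4:**
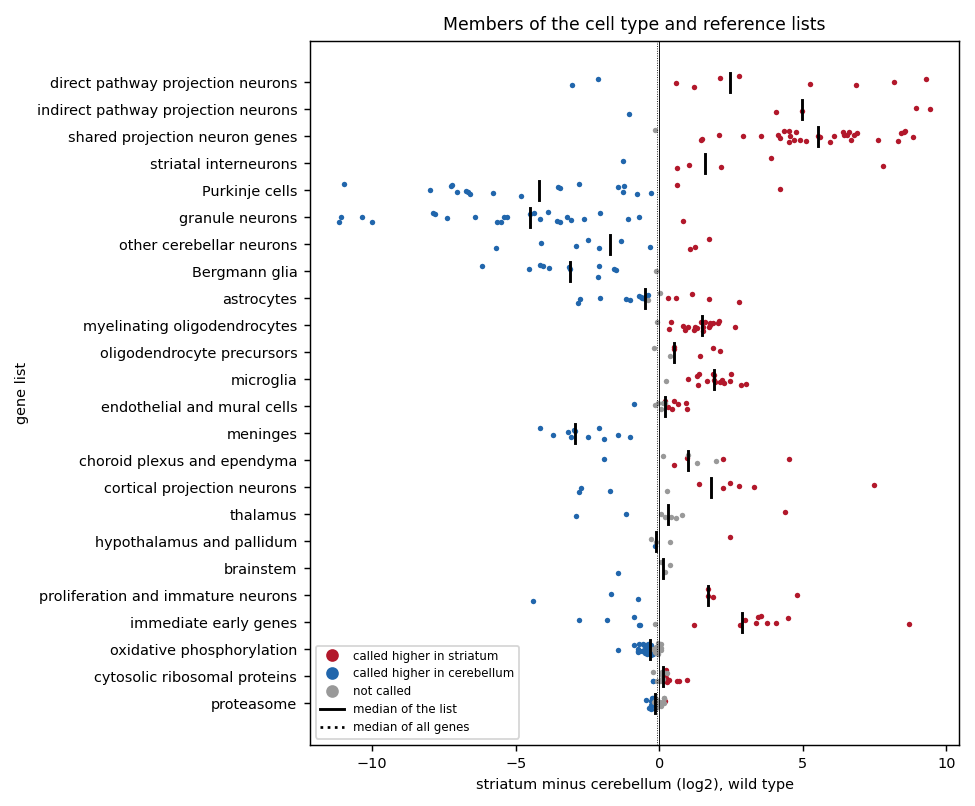
Striatum minus cerebellum (log2, horizontal axis) for each measured gene of the cell type and reference lists, 1 row a list; red and blue points were called higher in striatum and in cerebellum, grey points were not called, the thick bar is the list's median and the dotted line the median of all genes (-0.08). The medians of the medium spiny neuron, oligodendrocyte and microglia lists lie right of 0, and those of the Purkinje cell, granule neuron, Bergmann glia and meningeal lists lie left; single members of several lists lie on the other side.

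Genes of tissue next to the striatum were present on the striatum arrays to differing degrees. Choroid plexus genes varied within both tissues: the mean level of 9 of them was 4.78 to 7.64 in striatum and 4.38 to 6.56 in cerebellum. Ttr (transthyretin), their most abundant product, ran from 11.91 to 16.33 in striatum (median 15.41) and 6.73 to 12.35 in cerebellum (median 10.81), so the arrays overlapped although the 22.6-fold difference was called; in numbers 1 to 3 alone it was 3.52 log2 and missed the threshold (adjusted p = 0.0532). Of the 9, 4 were called toward striatum and 1 toward cerebellum, and Kl, Folr1, Sostdc1 and Kcnj13 were not called; without striatum replicate 5, in which the list was lowest, 7 were called toward striatum. The thalamus list averaged 8.01 in striatum replicate 6 and 7.10 in replicate 5, against 5.96 to 6.33 in the other 4 striatum arrays and 6.04 to 6.56 in cerebellum. Slc17a6 (VGLUT2), a transporter of thalamic and other subcortical glutamate neurons, ran from 7.39 to 10.29 in striatum (median 8.24) and 5.88 to 8.74 in cerebellum (median 7.86) and was not called (adjusted p = 0.197). In replicate numbers 4 to 6 alone, which include both of these striatum arrays, it was called toward striatum (difference 2.00, adjusted p = 0.0463).

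Cortical projection neuron genes averaged 7.37 to 7.91 over striatum arrays and 6.30 to 6.52 over cerebellum arrays. Of 10 past the filter, 6 were higher in striatum and 3 in cerebellum. Lamp5 was at least 120.3-fold higher in striatum and Tbr1, a T-box factor of deep-layer cortical neurons, 9.88-fold; Emx1 and Emx2, factors of the cortical lineage, averaged under 4 in both tissues. Nrn1 (neuritin) and Nptx1 (neuronal pentraxin 1) were 7.02-fold and 6.67-fold higher in cerebellum. Hypothalamic peptide genes Hcrt, Avp, Oxt and Pomc, and the brainstem genes Tph2, Slc6a4 and Phox2a, averaged under 4 in both tissues. The part that neighbouring tissue plays in the striatal levels was not tested.

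**Figure D5:**
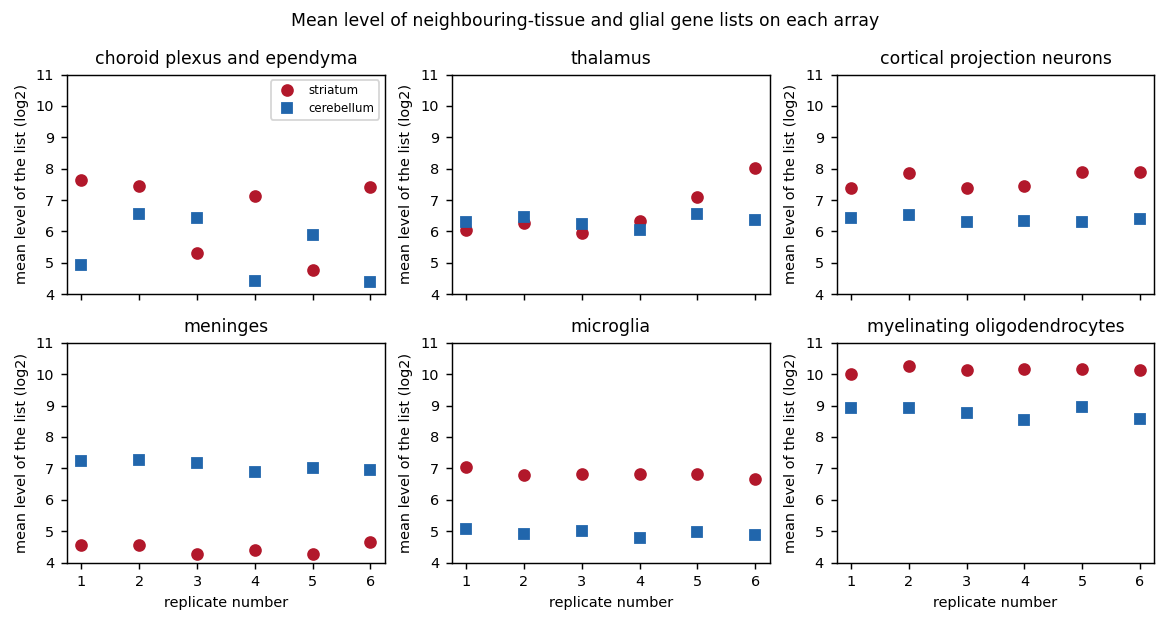
Mean level (log2, vertical axis) of 6 gene lists on each array, by replicate number (horizontal axis), for striatum (red circles) and cerebellum (blue squares). Choroid plexus genes vary within both tissues, thalamus genes are highest in striatum replicates 5 and 6, and meningeal, microglial and oligodendrocyte genes separate the tissues on every array; replicate numbers are not shown to pair the tissues.

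Activity-dependent genes were mixed. Of 16 immediate early genes past the filter, 10 were higher in striatum and 5 in cerebellum (median 2.89, bounded 2.01). Egr3 ran from 10.91 to 11.51 in striatum (median 11.13) and 2.20 to 2.70 in cerebellum (median 2.44) and was at least 142-fold higher in striatum; Arc, a cytoskeletal protein of active synapses, was 22.3-fold higher, Junb at least 13-fold and Egr1 11.7-fold. Homer1, a postsynaptic scaffold gene, was 10.8-fold higher. Jun was 3.56-fold and Ier2 at least 5.04-fold higher in cerebellum, and Fos differed by -0.88 with overlapping arrays (adjusted p = 0.0488). Fos lost its call when any 1 of 8 arrays was left out (cerebellum replicate 1, 2, 4 or 6, or striatum replicate 2, 3, 4 or 5), with differences of -0.91 to -0.55 and adjusted p = 0.0618 to 0.105.

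Proliferation genes Mki67, Top2a and Cdk1 averaged under 4 in both tissues. Of 7 listed genes of proliferation and young neurons past the filter, 4 were higher in striatum and 3 in cerebellum (median 1.68, bounded 0.86). Ccnd2 (cyclin D2) was 27.8-fold higher in striatum. Sox11, Sox4 and Dcx (doublecortin), genes of young neurons, were 3.62-fold, 3.21-fold and at least 1.81-fold higher there. Nhlh2, a basic helix-loop-helix factor, was at least 11.6-fold higher in cerebellum. Ccnd1 (cyclin D1) and Mybl1 were called toward cerebellum too and are given for direction only.

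Most genes of respiration, ribosomes and proteasomes differed by less than 2-fold. Of 50 oxidative phosphorylation genes, 37 were higher in cerebellum, 0 in striatum and 13 not called, with a median of -0.32. The median was -0.56 with centring on the hybridisation controls and -0.28 after quantile normalisation. Cox7c, a cytochrome oxidase subunit gene, was the 1 member past 2-fold, at 4.00 in striatum and 5.42 in cerebellum. That striatum value lies at the filter level, so the size of this difference is uncertain. Cyc1 (cytochrome c1) was 1.85-fold higher in cerebellum, Ndufa4 1.67-fold, Uqcrc2 1.66-fold and Ndufv1 1.66-fold, and the bright subunit gene Cox6a1 read 14.02 and 14.35.

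Ribosomal protein genes had a median of 0.12, with 11 of 25 higher in striatum and 2 in cerebellum, and 17 and 3 after quantile normalisation. With centring on the hybridisation controls the counts were 3 and 4 and the median turned to -0.12. Rps2 was 1.95-fold and Rps19 1.52-fold higher in striatum. Proteasome genes had a median of -0.14, with 12 of 28 higher in cerebellum, 1 in striatum and 15 not called. Among all genes 41.2% were higher in cerebellum and 31.9% in striatum. Psmc6 was 1.38-fold higher in cerebellum. With centring on the hybridisation controls 18 proteasome genes were higher in cerebellum and 0 in striatum (median -0.39), and after quantile normalisation 10 and 4. Without cerebellum replicate 6 or without striatum replicate 5, 3 proteasome genes were higher in striatum, and 2 were without striatum replicate 2.

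Huntingtin itself differed little between the tissues. Htt ran from 7.67 to 8.05 in striatum (median 7.84) and 7.66 to 8.12 in cerebellum (median 7.98) and was not called (difference -0.11, SE 0.09, adjusted p = 0.28). With arrays centred on the hybridisation controls the difference was -0.36 and was called toward cerebellum (adjusted p = 0.0117), so the scaling decides this call. Hap1 (huntingtin-associated protein 1) was 1.76-fold higher in striatum, and Rasd2 (Rhes), a striatal GTPase that binds huntingtin, 47.9-fold (10.94 against 5.36). Bdnf, the neurotrophin that striatal neurons receive largely from cortical axons, was under 4 in striatum and at least 3.43-fold higher in cerebellum, and its receptor Ntrk2 was 2.59-fold higher in striatum. Ppargc1a, a coactivator of mitochondrial genes, was 1.39-fold higher in cerebellum.

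Genes that bear on the stability of CAG repeats, which lengthen with age in striatum more than in cerebellum, leaned to cerebellum: 9 of 13 were higher there, 3 in striatum, and Msh3 was not called (5.93 and 5.86). The median was -0.42. Msh6, of the mismatch recognition complex, was 2.64-fold higher in cerebellum, Pms2 1.97-fold, Lig1 (DNA ligase I) at least 2.03-fold and Pold1, a subunit of DNA polymerase delta, 1.88-fold. The flap endonuclease gene Fen1 was 1.27-fold higher in cerebellum and Polb (DNA polymerase beta) 1.23-fold. Mlh3, a mismatch repair endonuclease, and Apex1, a base excision repair endonuclease, were 2.12-fold and 2.38-fold higher in striatum.

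The same contrast in the Q111 arrays, which were not used in any test above, gave like values. Of the 5262 probe sets called with at least a 2-fold difference in wild type, 5259 had the same direction in the 6 Q111 striatum and 6 Q111 cerebellum arrays. A difference of at least 2-fold was present there in 4689 (89.1%). Drd2 differed by 8.95 in Q111 and 9.42 in wild type, Pcp2 by -11.05 and -10.98, and Htt by 0.15 and -0.11. The difference between genotypes in these values was not tested here.

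The array has several limits for this comparison. For 262 of 4711 genes with more than 1 probe set past the filter, another probe set was called the opposite way. Of the 24268 probe sets under 4 in both tissues, 1.91% differed by at least 2-fold, whether called or not. Of those past the filter, 25.3% were called at that size. With no filter applied, 6056 of the 24268 were called, although only 463 differed by at least 2-fold. Such calls lie at levels taken here as too low to measure well. Since 73.1% of genes were called, a call on its own says little about a gene, and the size of the difference carries more.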

How the data were processed

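Total RNA of wild-type striatum and cerebellum was hybridised to arrays, 6 per tissue, grouped by the genotype and tissue in the labels. The authors deposited GCRMA values, per the submitters' processing notes; the GCRMA version, the log base and whether all arrays were normalised together are not given in the sources used here. The deposited values were taken as log2 values. Intensities were not analysed here, so precision is limited by the 6 arrays per tissue.

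Probe sets averaging under 4 in both tissues were left out. limma 3.58.1 in R 4.3.3 (lmFit, eBayes) compared the tissues over 12 arrays with 10 residual degrees of freedom, a prior of 3.2 and no block, with Benjamini-Hochberg adjustment over 20769 probe sets and a threshold of 0.05. In simulated arrays with 200 changed probe sets it called 18% of 1.25-fold, 72% of 1.5-fold, 90% of 2-fold and 100% of 4-fold changes, and 6.67% of calls were false. In the data 71.1% of probe sets were called, and the adjustment depends on that share. The simulated rates therefore do not give the sensitivity of the comparison here. Names came from platform annotation of 34945 single-symbol probe sets, 34741 of them matched by Entrez identifier to RefSeq (GRCm38.p6), with 0 symbols changed; 932 probe sets had several symbols and 9160 none.

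The members and 48 gene lists were chosen with earlier results of these data known. Named were the 12 genes with the largest bounded difference each way, members of the receptor, channel and other family lists, from each cell type or reference list up to 5 called genes each way and up to 3 others with the highest level, Htt, and sex-linked genes by array. Lists are described by counts and medians, with no set test, and some genes are on several lists. Promoter windows and motifs were examined after the data were seen. The alternatives were the filter, the scaling, values under 4 set to 4, all 24 arrays, the fit with the replicate number as a block or with the number set as a term, each number set alone, the variance model, array weights, a test against a 1.5-fold change, a threshold of 0.01 and leaving out each array. Differences were also taken as the median over a gene's probe sets. Centring on hybridisation controls and leaving out cerebellum numbers 1 to 3 together were added after the data were seen.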

Additional observations from a re-analysis of the deposited data

Results flagged for a closer look

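Within each group of 6 arrays, the highest and the lowest value of every named gene and of the mean level of 16 cell type and tissue lists were compared with the rest by Dixon's criterion, in which the gap to the nearest array divided by the group's range must exceed the critical value for 6 samples. Of 574 groups examined, 32 met it; chance alone flags about 1 in 20 groups. Values below are log2, and each is 1 array that lay apart from the other 5.

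In striatum, replicate 6 was the lowest array for Drd2 (10.71, the others 11.48 to 11.84), Ppp1r1b (11.88, the others 12.52 to 12.88), Ctxn1 (12.23, the others 12.69 to 12.84) and Slc6a5 (2.30), and the highest for Pdgfra (8.39) and Msh6 (7.17). The same array had the highest mean level of the thalamus list, 8.01. Whether these values share a source was not tested. Replicate 2 was the lowest for Tyrobp (6.91), Rasgrf1 (11.51) and Scg2 (12.02) and the highest for Lamp5 (11.55). Replicate 5 was the lowest for Atp2a2 (13.08), Cyc1 (10.96) and Pms2 (4.81), and replicate 3 for Atp2a3 (3.60) and Nfix (9.48).

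In cerebellum, replicate 4 was the highest array for Agt (10.41), Aldoc (14.24) and Cyc1 (12.10), and the lowest for P2ry12 (4.27), Grm5 (3.14) and Sst (2.39). Replicate 2 was the lowest for Gabra6 (13.69), Nos1 (8.50) and Slc32a1 (9.21) and the highest for Cbln4 (3.71), Ccnd2 (4.66) and Mlh3 (5.49). Replicate 1 was the lowest for Nhlh2 (6.80) and Nts (2.10), replicate 3 for Gpc5 (5.00) and for the mean of the astrocyte list (9.69, the others 9.88 to 9.92), and replicate 5 was the highest for Drd1 (3.51). Values under 4 among these are under the filter level.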

How the results depend on the processing

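The count of 14763 called probe sets was 14302 to 14645 when each array was left out in turn, with 6056 to 6188 higher in striatum and 8204 to 8547 higher in cerebellum. A test against a 1.5-fold change, a stricter question, called 6127, of which 2775 were higher in striatum and 3352 in cerebellum. Centring on the hybridisation controls left 3803 higher in striatum and 10638 in cerebellum. Other alternatives kept these counts within 1.5 times: 20525 with no filter, 11278 with a mean of 6 or more, 11705 and 11981 in numbers 1 to 3 and 4 to 6 alone. The labels do not say whether the replicate numbers pair the tissues. Deviations of same-numbered arrays correlated at 0.01, 0.04, -0.00, 0.11, 0.15 and 0.19 for numbers 1 to 6. Of 12 arrays, 6 correlated best with their own number among the 6 arrays of the other tissue. In both tissues Xist was low in numbers 4 and 5 and high in number 6. In numbers 1 to 3 it was at middle levels in cerebellum and high or low in striatum. Pairing was not tested. With the replicate block 14708 probe sets were called, 6217 higher in striatum and 8491 in cerebellum.

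Of 271 named genes, 235 kept their direction and call under every alternative fit. Taking the median over a gene's probe sets in place of the brightest was not counted among these fits. With it, 78 results, named genes and list medians together, moved and 110 stayed the same. A gene counted as moved when its difference shifted by at least the pooled SD of its arrays. The median of the indirect pathway list went from 4.95 to 4.06. Folds of many genes with several probe sets thus depend on the probe set chosen. The difference of Mbp reversed, to -0.12 after quantile normalisation, and the cause was not tested. Under another scaling 6 named genes lost their call and 5 gained one. Leaving out 1 array, 2 lost it (Fos and Cldn5) and 2 gained it (Cnr1 and Scn8a). With the replicate block Cldn5 lost it and Tshz1 gained it. Against a 1.5-fold change 27 lost it. For genes with a tissue mean under 4 the low side is not well measured, so their folds are given as bounds.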

Other observations

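Several lists of neighbouring tissue held few genes past the filter. Of 11 hypothalamus and pallidum genes with a named probe set, 6 averaged under 4 in both tissues. Lhx6, a LIM homeobox factor of pallidal and interneuron lineages, was at least 3.83-fold higher in striatum, and Sim1, a hypothalamic transcription factor, was called toward cerebellum with a difference of only -0.16. The 3 others past the filter were not called. Of 11 brainstem genes, 7 averaged under 4 in both tissues and 3 were not called. Nefh, the heavy neurofilament subunit, was 2.70-fold higher in cerebellum without overlap between the arrays. Of 4 blood genes, 2 averaged under 4 in both tissues and Bpgm was not called. Slc4a1, the anion exchanger of red cells, was called toward cerebellum, at least 1.53-fold higher, although the arrays overlapped.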
